A study of Homo sapiens with 16 samples.

Results

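CACNA2D1, LINC02036, LINC00910 and MIR4457 are 4 loci selected on the size of their H3K27ac difference between wild type (WT) and USP18-/- THP-1 cells. Their members are the regions that the deposited annotation assigned to these 4 gene names at any distance from the transcription start site (TSS), which gave 50 of 151654 regions. CACNA2D1 had 23 of them, LINC00910 had 11, MIR4457 had 9 and LINC02036 had 7. Because the loci were chosen for their genotype differences, those differences are given as a description without a test, and the tests concern the effect of interferon-alpha (IFN) within each genotype.

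H3K27ac was measured by ChIP-seq in THP-1, a human monocytic leukemia line. The 4 groups were WT untreated, WT treated with IFN, USP18-/- untreated and USP18-/- treated with IFN, with 2 libraries each. WT cells carried Cas9 without a USP18 deletion, and IFN was given at 1000 U/ml for 6 h. Per the study's methods, knockouts were grown from sorted single cells, so that the deletion of USP18 and the history of a clone cannot be told apart in any genotype difference, and the number of clones behind the USP18-/- libraries was not given in the sources used here.

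Acetylation of lysine 27 on histone H3 marks active promoters and enhancers, and regions without activity carry little of it. USP18 removes the ubiquitin-like protein ISG15 from its targets and also blocks signaling at the type I IFN receptor, so that cells without it respond to IFN more strongly. CACNA2D1 encodes the alpha-2/delta-1 auxiliary subunit of voltage-gated calcium channels, LINC02036 and LINC00910 are long non-coding RNA genes, and MIR4457 is a microRNA gene in the interval between TERT, the catalytic subunit of telomerase, and CLPTM1L, which encodes a membrane protein.

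Summed over the regions, libraries held 9046141 to 12935453.5 tags, which equals 36.1% to 42.5% of each library's total. Some windows overlap, and a tag in overlapping windows counts more than once in these sums. The share of tags that lay in the regions was therefore lower than these values. Of the 151654 regions, 123276 passed the minimum of 10 counts in at least 2 of 8 libraries and were tested, among them 42 of the 50 member regions. The TSS region of the targeted gene, USP18, carried 7.52 to 8.35 CPM, which are counts scaled to the size of the library, in untreated libraries of both genotypes, and acetylation at a promoter does not show whether the gene was deleted. Among markers fixed for THP-1, the SPI1 TSS carried a mean of 92.5 CPM over the 8 libraries and the CEBPA TSS 38.4 CPM, and 6 of the 7 markers had a TSS region. Several of these markers moved with the groups. MPO, the myeloperoxidase gene, was at 48.2 to 55.9 CPM in WT libraries, 16.2 and 18.1 CPM in untreated USP18-/- cells and 4.72 and 3.79 CPM with IFN. At LYZ, the lysozyme gene, the TSS region was at 10.8 to 14.1 CPM in WT and untreated USP18-/- libraries and at 5.6 and 4.53 CPM in USP18-/- cells with IFN. A region 2526 bp upstream of CSF1R, the receptor of macrophage colony-stimulating factor, was at 4.13 to 6.07 CPM in those libraries and at 21.5 and 22.4 CPM in USP18-/- cells with IFN. The CSF1R regions 94, 307 and 580 bp from the TSS were at 0.258 to 3.23 CPM in all libraries. Their log2 changes with IFN in USP18-/- cells were −0.20, 1.05 and −0.37, with adjusted p of 0.755, 0.268 and 0.516 by edgeR. The TSS regions of SPI1 and CEBPA were higher in untreated USP18-/- cells by 0.57 and 0.55 on the log2 scale, less than 2-fold. Of 7 markers of lymphoid, erythroid, liver and epithelial cells, 1 had a TSS region in the table, PAX5, a B cell factor. Its 3 tested regions were at 0.391 to 1.62 CPM in WT and 1.61 to 3.41 CPM in USP18-/- libraries, and 3 of them were higher in the knockout untreated and 2 with IFN, by at least 2-fold with an adjusted p under 0.05 by edgeR. The part of these differences in the results below was not tested. Levels are CPM of TMM-scaled library sizes, and all windows were 1000 bp wide, so levels can be set beside each other between regions.

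One lead region stood for each locus, the tested region with the largest mean difference between genotypes at a level of at least 1 CPM. The lead region of CACNA2D1 was chr7:82443151-82444151 (hg38), centered 155 bp from the TSS over the first exon, where GENCODE v44 places 5′ UTR and coding sequence. That of LINC02036 was chr3:194250358-194251358, 705 bp upstream of the nearer of the TSSs that the deposited annotation uses for this gene, and GENCODE v44 places an exon of LINC02037 in the same window. For LINC00910 it was chr17:43360607-43361607, 27791 bp from the TSS used by the deposited annotation, which labels the window a CpG island between genes, whereas GENCODE v44 extends LINC00910 across it and places there an exon of another gene that it lists by identifier only. For MIR4457 it was chr5:1313396-1314396, 4519 bp upstream, where GENCODE v44 has no gene.

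The sequences below are shown because these windows carry the largest genotype differences of their loci and differ from each other in base composition. They are the 250 bases upstream of the RefSeq start of CACNA2D1 (chr7:82443957-82444206, minus strand, RefSeq, GRCh38) and the central 300 bases of the LINC02036 and LINC00910 lead regions on the plus strand of hg38 (chr3:194250709-194251008 and chr17:43360958-43361257). Capitals mark CG dinucleotides, the sites of DNA methylation.
CACNA2D1: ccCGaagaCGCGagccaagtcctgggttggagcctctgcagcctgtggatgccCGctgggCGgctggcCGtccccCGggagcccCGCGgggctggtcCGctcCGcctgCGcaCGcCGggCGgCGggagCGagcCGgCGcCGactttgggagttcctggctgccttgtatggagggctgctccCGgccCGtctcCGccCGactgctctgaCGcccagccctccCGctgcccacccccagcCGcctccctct
LINC02036: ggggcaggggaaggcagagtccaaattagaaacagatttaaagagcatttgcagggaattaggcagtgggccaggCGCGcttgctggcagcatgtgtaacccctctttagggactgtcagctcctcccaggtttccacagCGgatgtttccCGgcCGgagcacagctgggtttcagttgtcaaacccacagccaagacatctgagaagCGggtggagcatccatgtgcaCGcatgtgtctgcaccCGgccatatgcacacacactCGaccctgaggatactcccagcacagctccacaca
LINC00910: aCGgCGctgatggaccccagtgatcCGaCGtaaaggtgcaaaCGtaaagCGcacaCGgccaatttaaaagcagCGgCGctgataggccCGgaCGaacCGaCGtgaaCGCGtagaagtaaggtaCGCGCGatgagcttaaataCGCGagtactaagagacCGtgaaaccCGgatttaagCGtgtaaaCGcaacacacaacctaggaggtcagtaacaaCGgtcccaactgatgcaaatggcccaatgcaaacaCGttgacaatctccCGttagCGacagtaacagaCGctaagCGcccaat

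The CACNA2D1 window was the richest of the 4 in G and C, at 73.8%, above 98.6% of all windows, with 129 CG dinucleotides. In the LINC00910 window G and C made up 48.5%, near the median of 46.1% over all windows, but its ratio of observed to expected CG was 1.14, above 99.96% of windows, against a median of 0.239. The other windows were less extreme, with a CG ratio of 0.382 at LINC02036 and 0.411 at MIR4457. Part of the MIR4457 window is labelled an Alu repeat by the deposited annotation.

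A set of 3 short motifs was searched on both strands, and matches of different motifs were counted separately where they overlapped. No lead window held the AP-1 motif TGANTCA, which 31.1% of all windows held. The PU.1 core GAGGAAG had 2 matches in the CACNA2D1 window and none in the other 3, and 37.0% of all windows had one. AAANNGAAA, the repeated core of the IFN-stimulated response element, had 3 matches in the LINC00910 window and none in the other 3, and 47.1% of all windows had one. Such matches describe letters and not binding.

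The mature product of MIR4457 is given from RefSeq (chr5:1309314-1309335, minus strand) with its seed, bases 2 to 8, in capitals, to place the gene between the regions described here. Its amount was not measured.
hsa-miR-4457: uCACAAGGuauugacuggcgua

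At CACNA2D1, H3K27ac over the TSS was high in WT libraries and near that of the median region in USP18-/- libraries. The lead region carried 51.4 and 48.7 CPM in untreated WT cells and 61.3 and 49.1 CPM in WT cells with IFN. In USP18-/- libraries it carried 0.947 and 1.23 CPM untreated and 0.962 and 1.02 CPM with IFN. No library of one genotype overlapped the other, which follows from choosing the region for its genotype difference. The WT level was above 98.5% of all regions in untreated cells, and the USP18-/- level above 43.7% of them. From summed counts, WT was 46.1-fold higher untreated (95% Poisson interval 30.8 to 72.3) and 55.9-fold higher with IFN (36.7 to 89.6), intervals which cover counting error only.

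The overlapping windows on either side of the lead region showed nearly the same pattern. The window 632 bp inside the gene had 44.3 to 57.1 CPM in WT libraries and 0.648 to 1.22 CPM in USP18-/- libraries. The one 265 bp upstream had 26.8 to 30.6 CPM against 0.35 to 1.02 CPM. Since the 3 windows share sequence, they count as 1 stretch of chromatin, which spans chr7:82442674-82444571.

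Further into the first intron the marks were weaker, and lower in the knockout as well. The 4 windows 12.8 to 18.5 kb from the TSS carried 1.17 to 4.25 CPM in WT libraries and 0.0949 to 1.92 CPM in USP18-/- libraries. Regions of the locus deeper in the gene were near 1 CPM in WT, and the one at 157810 bp had 1.07 to 1.73 CPM against 0.172 to 0.664 CPM. Deeper still, a window in intron 6 was assigned to LOC101927356, a non-coding gene. It had 2.06 to 3.61 CPM in WT and 0.344 to 0.648 CPM in USP18-/- libraries.

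Upstream of the gene 2 overlapping windows went the other way. At 172692 bp upstream, WT libraries had 10.6 to 12.7 CPM and USP18-/- libraries 18.7 to 21.3 CPM, and the window at 171872 bp had 9.67 to 11.1 CPM against 15.2 to 15.8 CPM. Their log2 differences were 0.70 and 0.58 untreated and 0.82 and 0.56 with IFN, under the 2-fold threshold. These were the highest USP18-/- levels of any CACNA2D1 region. The remaining upstream windows, at 84 to 297 kb, had at most 1.94 CPM in any library, and 7 of the 23 regions of the locus were too low to be tested.

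LINC02036 showed the second near-complete difference, in a single window assigned to the gene. The lead region carried 14.6 and 14.9 CPM in untreated WT cells, 18.6 and 17.8 CPM in WT cells with IFN, 0.258 and 0.38 CPM in untreated USP18-/- cells and 0.437 and 0.278 CPM in USP18-/- cells with IFN. The USP18-/- values rest on 3 to 4.5 tags per library, at about the 3 counts taken as the floor of detection, which was 0.258 to 0.306 CPM. WT was higher by 46.7-fold untreated (95% Poisson interval 22.4 to 117) and by 50.6-fold with IFN (25.4 to 118). The USP18-/- level lay above 4.24% of all regions, the lowest rank of the 3 lead regions that were lower in the knockout.

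Marks on both sides of that window differed less. In the window 4.8 kb to the right H3K27ac was 27.6 to 29.7 CPM in WT and 11.9 to 14.6 CPM in USP18-/- libraries, so that acetylation remained there at log2 differences of −0.94 and −1.15. The window 25.8 kb to the left had 3.67 to 4.38 CPM against 0.437 to 1.3 CPM. Near the other annotated TSS of the gene, the window 46.7 kb to the left had 1.01 to 1.83 CPM in WT and 0.35 to 0.759 CPM in USP18-/- libraries, and the one 45 kb to the left was at 0.285 to 1.3 CPM in all 8 and too low to be tested. A window 4.6 kb to the left of the lead region was assigned to LINC02037, a neighboring non-coding gene inside the span of the locus. It had 12.9 to 14.9 CPM in WT libraries and 0.38 to 1.84 CPM in USP18-/- libraries, at log2 differences of −4.25 and −3.35.

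LINC00910 was the locus with more H3K27ac in USP18-/- cells. Its lead region carried 0.306 and 0.0895 CPM in untreated WT cells, which is 2.5 and 0.5 tags, and no tag in either WT library with IFN. In USP18-/- libraries it carried 17.4 and 14.4 CPM untreated and 22.4 and 16.4 CPM with IFN. The untreated ratio, from 354 rounded counts in the knockout and 4 in WT, was 83.8 (95% Poisson interval 32.5 to 309). It rested on so few WT counts that it was 179 without the first untreated WT library and 52.3 without the second. With IFN the knockout was at least 65.0-fold higher, against a floor of 3 counts in each WT library. The USP18-/- level was above 88.2% of all regions untreated and above 89.6% with IFN.

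The 2 windows that overlap the lead region gave the same picture with slightly more signal in WT. One, at 28156 bp, had 0.0977 to 0.815 CPM in WT and 9.3 to 15.8 CPM in USP18-/- libraries, and the other, at 28414 bp, had 0.293 to 1.02 CPM against 10.9 to 15.3 CPM. Nearer to the TSS stood 4 overlapping windows that were acetylated in both genotypes. The highest of them, at 19983 bp, carried 55.8 to 60.1 CPM in WT libraries, 113 and 122 CPM in untreated USP18-/- cells and 157 and 160 CPM in USP18-/- cells with IFN.

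The TSS of LINC00910 itself was acetylated in every library. There the window at 478 bp had 17.9 to 19.9 CPM in WT and 35 to 41.8 CPM in USP18-/- libraries, and the window 402 bp upstream had 10.2 to 13.7 CPM against 25.2 to 30.9 CPM. Thus the regions from the TSS to 21011 bp differed by about 2-fold, at log2 differences of 0.94 to 1.51 over 7 windows, while the stretch around the lead region went from the floor in WT to the upper part of all regions in the knockout. The remaining window, at 12998 bp, stayed at 0.57 to 1.57 CPM, with overlap between genotypes in the IFN-treated libraries.

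MIR4457 had the strongest acetylation of the 4 loci in WT cells. At its lead region the level was 159 and 165 CPM in untreated WT cells, 137 and 125 CPM in WT cells with IFN, 6.46 and 5.88 CPM in untreated USP18-/- cells and 1.84 and 1.67 CPM in USP18-/- cells with IFN. WT was 26.2-fold higher untreated (95% Poisson interval 22.1 to 31.3) and 74.9-fold higher with IFN (54.7 to 106). The overlapping window 4167 bp upstream was the highest of the locus, at 167 and 172 CPM in untreated WT cells against 7.06 and 7.88 CPM in untreated USP18-/- cells.

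In contrast to the lead regions of the other 2 loci that were lower in the knockout, that of MIR4457 stayed above the median region there. The untreated USP18-/- level of the lead region was above 77.9% of all regions, and it was above 57.3% of them with IFN. All 9 regions had mean levels above the median of all regions in each of the 4 groups. From the first to the last window the locus covers chr5:1303737-1325397, and both of its outermost windows differed between genotypes as well. On the TERT side, 5140 bp from the MIR4457 start, the level was 61.7 and 62.7 CPM in untreated WT cells and 3.79 and 5.13 CPM in untreated USP18-/- cells. On the CLPTM1L side, in an intron of that gene, it was 11.8 and 9.22 CPM against 1.46 and 1.33 CPM.

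**Figure D1:**
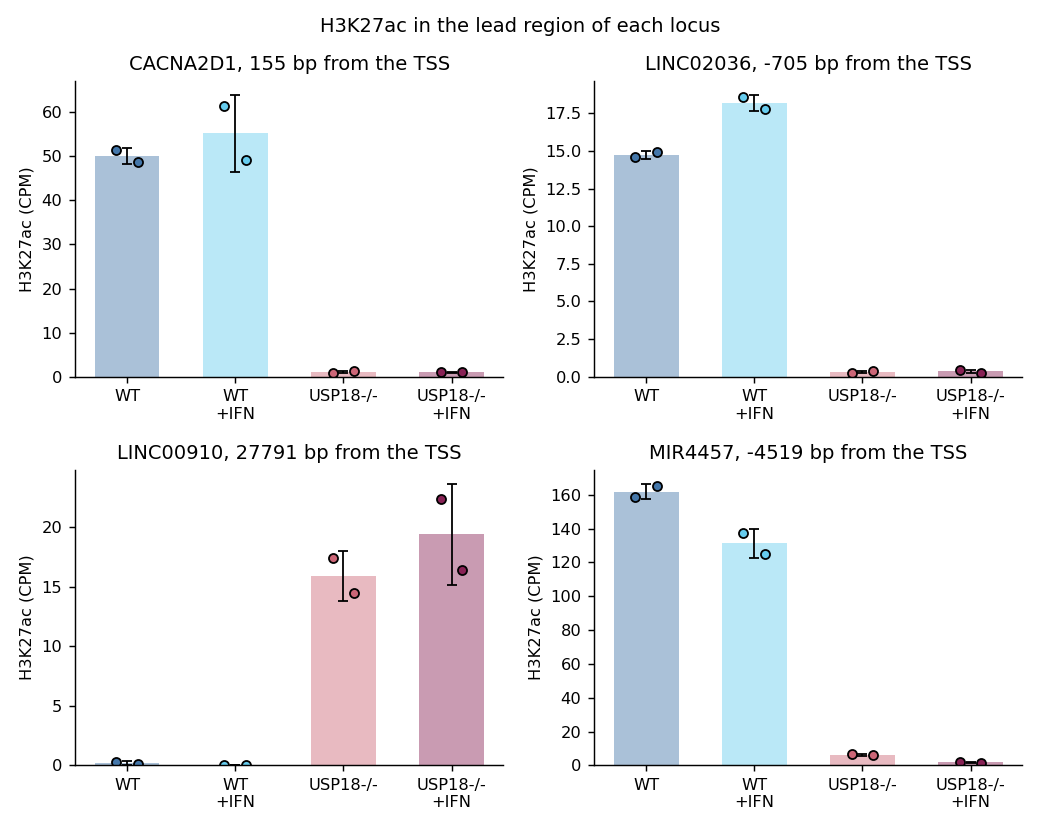
H3K27ac in CPM in the lead region of each locus, with 1 point per library, bars at the mean of 2 libraries and error bars of 1 SD, in the 4 groups. CACNA2D1, LINC02036 and MIR4457 were high in the WT libraries and LINC00910 in the USP18-/- libraries. No library of one genotype overlapped the other genotype, which follows from choosing these regions for their genotype differences.

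Counted over the loci, and with the same thresholds as for all regions (over 2-fold and an adjusted p under 0.05), 21 of the 42 tested member regions were lower in untreated USP18-/- cells and 9 were higher, where 10.8% and 5.67% of all tested regions were. With IFN 21 were lower and 10 higher, where 13.4% and 11.3% of all tested regions were. These counts follow from how the loci were chosen. They were uneven among the loci. All 9 MIR4457 regions were lower in both contrasts, and 9 of 11 LINC00910 regions were higher untreated and 10 of 11 with IFN. Of the 16 tested CACNA2D1 regions, 9 were lower untreated and 8 with IFN, and of the 6 tested LINC02036 regions 3 and 4 were lower. The 42 regions are not independent, since the 50 windows form 34 stretches without overlap.

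The difference was local to a different extent at each locus, as the plot of fold against distance shows. An unbroken run of tested regions that differed over 2-fold in the direction of the lead region, in both genotype contrasts, had 12 regions at CACNA2D1. It extended from the TSS into the gene for 365 kb, but apart from the TSS its windows had at most 4.25 CPM. The run took in 3 windows that were assigned to LOC101927356 but lie in introns of CACNA2D1 in the deposited annotation. At MIR4457 the run had 11 regions within 30.9 kb, chr5:1294527-1325397, and included 2 TERT windows, and at LINC02036 it had 4 within 47.7 kb, including the LINC02037 window. At LINC00910 it had 7, all of them of the locus, within 9.71 kb.

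**Figure D2:**
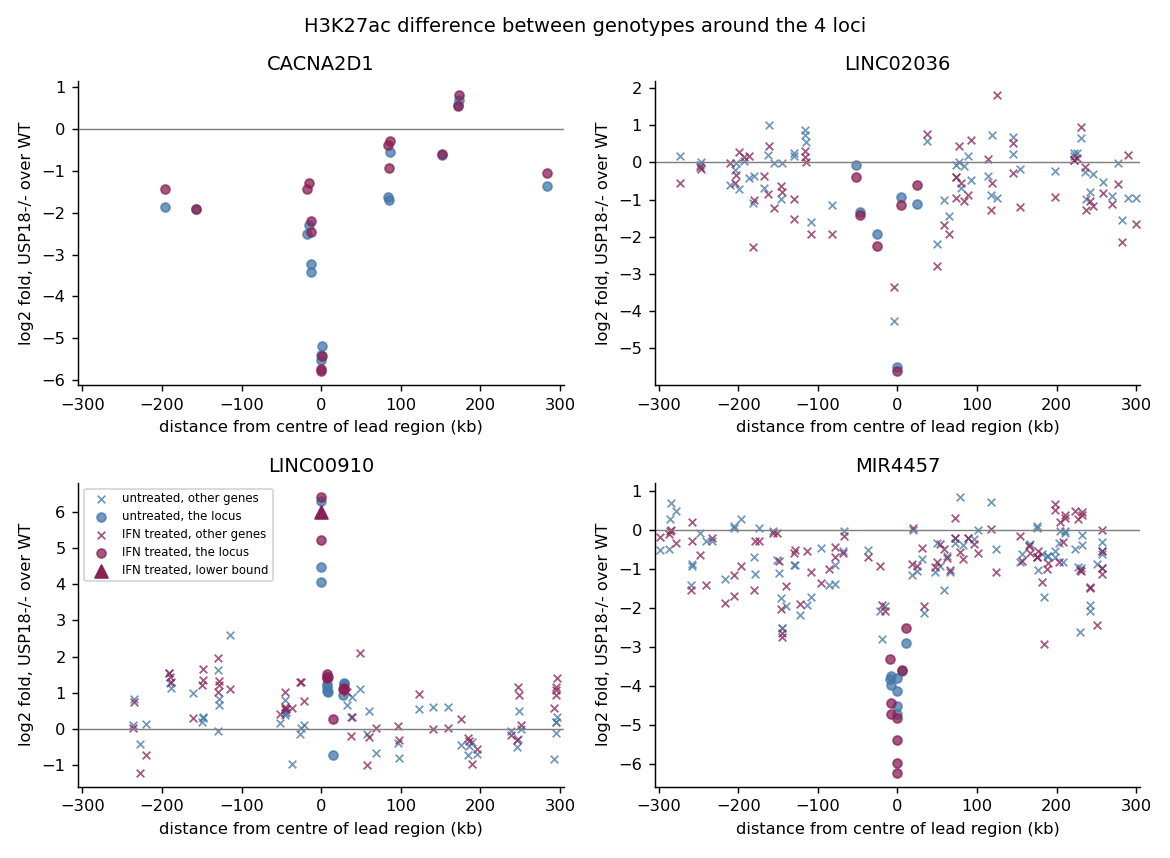
Log2 fold of H3K27ac in USP18-/- over WT cells for each tested region within 300 kb of the center of the lead region, untreated and with IFN, with circles for regions of the locus and crosses for regions of other genes (distance in kb, toward higher coordinates to the right). The triangle is the lower bound of 6.02 for the LINC00910 lead region with IFN, where WT libraries held no tag. At the 3 loci with regions of other genes in range, the lead region and the windows overlapping it stood farther from 0 than the regions of other genes.

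Around MIR4457, some regions of the neighboring genes were lower in the knockout too. TERT had 4 tested regions, of which 3 were lower untreated and 2 with IFN, where 10.8% and 13.4% of all tested regions were. The region at its TSS, centered 20 bp inside the gene, carried 8.76 and 7.79 CPM in untreated WT cells, 5.47 and 6.57 CPM in WT cells with IFN, 0.947 and 1.42 CPM in untreated USP18-/- cells and 1.05 and 2.13 CPM in USP18-/- cells with IFN. The genotypes did not overlap, and the log2 differences were −2.80 and −1.92. That is a small amount of acetylation in either genotype beside the MIR4457 regions.

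CLPTM1L had 6 tested regions, of which 3 were lower untreated and 1 with IFN, where 10.8% and 13.4% of all tested regions were. Its TSS region carried 20.6 to 25.5 CPM in WT and 13.5 to 15.9 CPM in USP18-/- libraries, at log2 differences of −0.74 and −0.48, under the 2-fold threshold. A larger difference lay 2682 bp upstream of it, where 7.74 to 8.79 CPM in WT stood against 1.81 to 2.27 CPM. Farther out, SLC6A18, an amino acid transporter gene, and LINC01511 had at most 3.31 CPM in any library, and their median log2 differences were −0.72 and −0.34 untreated. Of the 6 tested regions of SLC6A18, 2 were lower untreated and 1 with IFN, and of the 11 of LINC01511, 1 was lower in each.

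Of the 240 tested regions of other genes within 1 Mb of the MIR4457 regions, 39 were lower and 4 higher in untreated USP18-/- cells, with a median log2 difference of −0.34. The median over all tested regions was −0.02. With IFN 44 were lower and 5 higher. Of all tested regions, 10.8% were lower and 5.67% higher untreated, and 13.4% and 11.3% with IFN.

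Near CACNA2D1 the neighbor on the right, PCLO, which encodes a presynaptic scaffold protein, had little signal at its TSS. Its region 34 bp upstream had 2.85 to 5.18 CPM in WT and 1.85 to 3.23 CPM in USP18-/- libraries. On the left, HGF, the gene of hepatocyte growth factor, had 5 tested regions, all upstream of its TSS, with a median log2 difference of 0.12 untreated and −0.85 with IFN. SEMA3E, a semaphorin gene farther to the right, stayed at or below 3.46 CPM. Among 37 tested regions of other genes within 1 Mb, 11 were lower in the knockout untreated and 12 with IFN at the same thresholds. Of all tested regions, 10.8% and 13.4% were. The 37 include 6 regions assigned to LOC101927356, of which 4 were lower untreated and 4 with IFN. Several of these lie in introns of CACNA2D1 itself, and some overlap.

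The nearest neighbor of LINC02036 on the left was HES1, a transcriptional repressor downstream of Notch signaling. Its window 1604 bp upstream carried 6.83 and 7.16 CPM in untreated WT cells against 13.2 and 10.3 CPM in untreated USP18-/- cells, and 11.3 and 8.50 CPM against 12.9 and 11.6 CPM with IFN. The genotypes did not overlap within either condition, and the log2 differences were 0.75 and 0.30, under the 2-fold threshold. Of the 9 tested HES1 regions, 1 was lower in the knockout untreated and 3 with IFN. The window at 5571 bp was lower in both, with 6.57 to 8.66 CPM in WT and 1.57 to 2.67 CPM in USP18-/- libraries. Its log2 differences were −1.60 and −1.93. On the right, LINC00887 had a window at its 3′ end with 5.46 to 5.91 CPM in WT and 0.787 to 1.38 CPM in USP18-/- libraries. LINC02028 and CPN2, on the left and right, had median log2 differences of −0.29 and −0.09 untreated and of −0.36 and −0.86 with IFN. The promoter window of LINC02028, 475 bp upstream, carried 7.03 and 8.23 CPM in untreated WT cells against 3.53 and 3.61 CPM in the knockout, and 8.98 and 8.09 CPM against 1.05 and 2.50 CPM with IFN. It was 1 of 3 regions of this gene that were lower with IFN, of 12 tested. Of 149 tested regions of other genes within 1 Mb, 13 were lower and 2 higher untreated, and 28 and 4 with IFN. Of all tested regions, 10.8% were lower and 5.67% higher untreated, and 13.4% and 11.3% with IFN.

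To the left of LINC00910 stood windows assigned to RNU2-1, a gene of the U2 spliceosomal RNA, whose copies are repeated and make the assignment of reads uncertain, at median log2 differences of 0.40 and 1.01. TMEM106A had 12.1 to 15.4 CPM at its TSS in WT, 16.4 and 14.4 CPM in untreated USP18-/- cells and 32.1 and 31 CPM in USP18-/- cells with IFN. On the right, MIR2117HG had a single window, at 0.38 to 1.16 CPM. Of 250 tested regions of other genes within 1 Mb, 21 were higher and 5 lower untreated, and 40 and 14 with IFN. Of all tested regions, 5.67% were higher and 10.8% lower untreated, and 11.3% and 13.4% with IFN.

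The IFN effect within each genotype was not used to choose the loci and was tested. In WT cells 0 of 42 member regions passed both thresholds in either direction in the quasi-likelihood test of edgeR, with p adjusted by Benjamini-Hochberg, where 0.342% of all tested regions rose and 0.0389% fell. At an unadjusted p under 0.05 by edgeR, 1 member region was higher and 11 lower, and DESeq2 called 0 at both thresholds. Of these 11, 8 were MIR4457 windows, some of which overlap. The share of all tested regions at this looser threshold is not given here, so the 2 counts cannot be read as a trend. In USP18-/- cells 1 member region rose and 6 fell, where 7.12% of all tested regions rose and 4.30% fell, and DESeq2 gave 1 and 6 as well. The 6 that fell were MIR4457 regions, in 2 stretches of overlapping windows.

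In untreated USP18-/- cells these 6 MIR4457 regions carried the rest of the acetylation described above, and with IFN it fell by more than 2-fold. At the lead region it went from 6.17 ± 0.403 to 1.75 ± 0.121 CPM (SD, n = 2), a log2 change of −1.81 with a standard error of 0.22 and an adjusted p of 5.84e-11 (edgeR's quasi-likelihood test, Benjamini-Hochberg). The window 4167 bp upstream went from 7.47 ± 0.58 to 2.24 ± 0.292 CPM, a log2 change of −1.72 ± 0.20 (SE) with an adjusted p of 8.98e-12 in the same edgeR test. On the TERT side of MIR4457, the windows at 3679 and 3127 bp changed by −1.12 and −1.18 on the log2 scale. The USP18-/- libraries with IFN lay below the untreated ones in each of these windows.

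The 3 MIR4457 windows farthest from the lead region did not pass the test in USP18-/- cells. The log2 change was −0.10 at 5140 bp, −0.50 at 9859 bp upstream and 0.13 at 15520 bp upstream, with adjusted p of 0.826, 0.240 and 0.876 in the edgeR test. Their levels with IFN, 1.02 to 4.81 CPM, overlapped the untreated ones at 5140 and 15520 bp and lay below them at 9859 bp.

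In WT cells the same locus changed little with IFN. There 4 MIR4457 regions had an adjusted p under 0.05 in the edgeR test, all with lower values in IFN-treated libraries and all by less than 2-fold. The share of all tested regions that pass without a fold threshold is not given here. The largest change was at 5140 bp, from 62.2 ± 0.708 to 40.9 ± 4.61 CPM (SD, n = 2), at a log2 change of −0.61 ± 0.11 (SE) and an adjusted p of 1.71e-04 by edgeR. The others were −0.44 at 3679 bp, −0.45 at 3127 bp and −0.51 at 9859 bp upstream, with adjusted p of 0.00736, 0.00628 and 0.0244 by edgeR. These smaller changes depended on single libraries. Without the first WT library with IFN the adjusted p by edgeR was 0.317 at 3679 bp, 0.199 at 3127 bp and 0.178 at 9859 bp, without the second it was 0.101 at 5140 bp, 0.0582 at 3127 bp and 0.305 at 9859 bp, and without either untreated WT library it was 0.153 to 0.457 for the 3 smaller ones. DESeq2 gave 0.0622 to 0.230 for those 3. At the lead region the log2 change was −0.30 ± 0.08, with an adjusted p of 0.0596 by edgeR, and it passed the threshold with sums of counts (0.0416), with 2 groups only (0.00448) and with the replicate block (0.0307). The IFN effect in USP18-/- cells minus that in WT cells was −1.51 on the log2 scale at the lead region and 0.51 at 5140 bp, and these differences were not tested, because they include the genotype contrasts on which the locus was chosen.

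**Figure D3:**
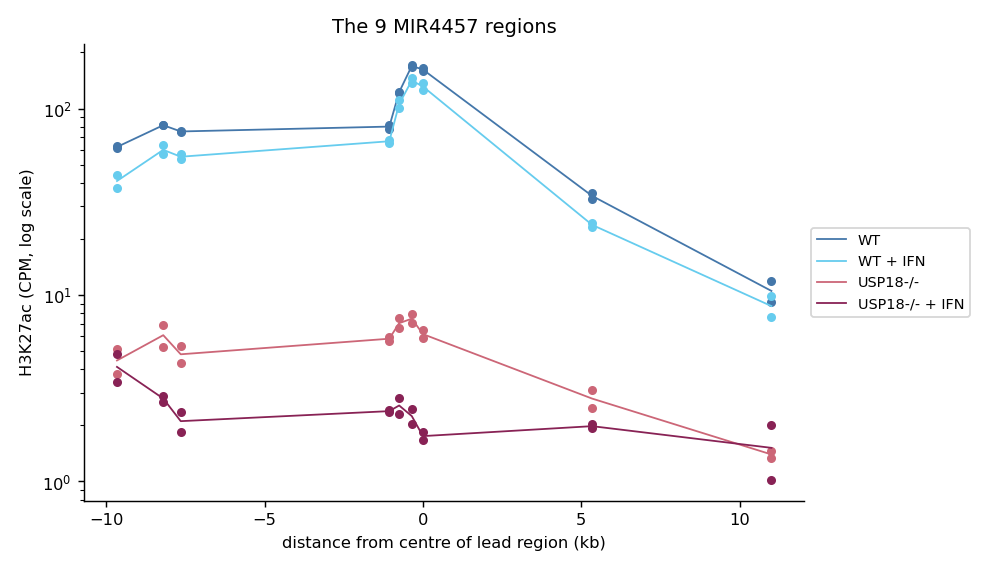
H3K27ac in CPM (log scale) of the 9 MIR4457 regions against distance in kb from the center of the lead region, with 1 point per library and lines through the mean of the 2 libraries of each group. WT libraries lay above USP18-/- libraries in all 9 regions, and in the 6 regions from 8.2 kb to the left up to the lead region USP18-/- libraries with IFN lay below the untreated ones.

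At CACNA2D1 1 region rose with IFN in USP18-/- cells, the intronic window at 15063 bp. It carried 0.172 and 0.57 CPM in untreated USP18-/- cells and 1.92 and 1.2 CPM with IFN, a log2 change of 2.08 with a standard error of 0.53 and an adjusted p of 0.00111 by edgeR. In WT cells it carried 1.73 and 1.88 CPM untreated and 3.42 and 4.25 CPM with IFN, a log2 change of 1.08 ± 0.33 (SE) with an adjusted p of 0.126 by edgeR. These are levels near the median region, and without 1 USP18-/- library, the first untreated or the first with IFN, the count of CACNA2D1 regions that rose was 0. At the TSS no IFN effect passed the test, and the lead region had log2 changes of 0.14 in WT and −0.13 in USP18-/- cells with adjusted p of 0.770 and 0.887 by edgeR.

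LINC02036 had 0 regions called with IFN in either genotype by edgeR or DESeq2, and 0 at an unadjusted p under 0.05. Its lead region had log2 changes of 0.30 ± 0.16 (SE) in WT and 0.18 ± 0.72 in USP18-/- cells. The second of these rests on 3 to 4.5 tags per library, a depth that cannot show a change of this size.

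Among the 4 overlapping windows of LINC00910 nearer to the TSS that were acetylated in both genotypes, 3 rose with IFN in USP18-/- cells, by less than 2-fold. They belong to 1 stretch of overlapping windows, and the share of all tested regions that pass without a fold threshold is not given here. The window at 19701 bp went from 103 ± 10.3 to 146 ± 9.27 CPM (SD, n = 2), a log2 change of 0.51 ± 0.09 (SE) with an adjusted p of 6.68e-07 by edgeR. At 19983 bp the log2 change was 0.44 with an adjusted p of 7.20e-06, and at 20557 bp it was 0.22 with an adjusted p of 0.0488, both by edgeR. The last of these did not pass with sums of counts, where the log2 change was 0.09, or with DESeq2, or without either untreated WT library (0.22), or without any 1 library of the untreated or IFN-treated USP18-/- cells, where it was 0.17 to 0.26. In WT cells the same windows had log2 changes of 0.08, 0.05 and −0.04. The lead region, which was near 0 in WT, had a log2 change of 0.28 ± 0.16 in USP18-/- cells, with an adjusted p of 0.207 by edgeR.

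**Figure D4:**
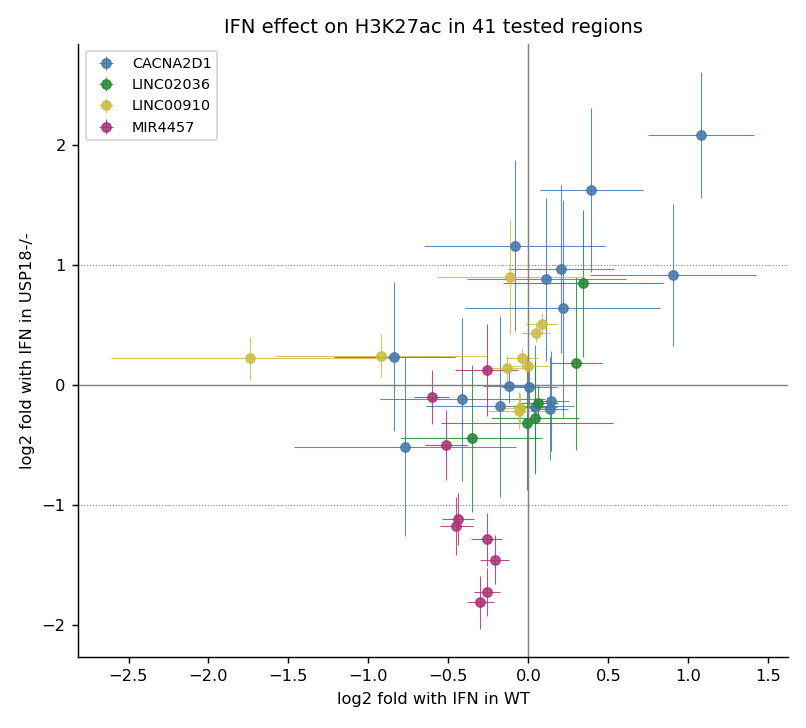
Log2 fold with IFN in USP18-/- cells against that in WT cells for 41 tested member regions, with bars of 1 standard error from the edgeR fit and dotted lines at a 2-fold change in USP18-/- cells (the LINC00910 lead region is left out, since WT libraries with IFN held no tag). The 6 MIR4457 regions that passed the test lay below −1 on the USP18-/- axis, and no region with an adjusted p under 0.05 in WT cells lay beyond 1 or −1 on the WT axis.

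The other genes of the calcium channel family were looked at through their TSS regions. Of 25 genes of alpha-1, beta, gamma and the other alpha-2/delta subunits, 15 had a TSS region and 10 had one that was tested. In untreated cells, 1 of their 16 tested regions was lower in the knockout, that of CACNA1E (a pore-forming subunit), and 1 was higher, that of CACNG3 (a gamma subunit). Both were at low levels, with at most 2.44 CPM at CACNA1E and 1.57 CPM at CACNG3. Of all tested regions, 10.8% were lower and 5.67% higher in untreated USP18-/- cells. The median log2 difference of the 16 was −0.27 untreated and −0.08 with IFN, where CACNA1E was again the 1 region called lower.

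CACNA2D4, the paralog with the most acetylation at its TSS, carried 4.08 and 4.56 CPM in untreated WT cells and 7.83 and 7.78 CPM in untreated USP18-/- cells in the window 20 bp upstream, a log2 difference of 0.85. With IFN in USP18-/- cells it fell to 3.67 and 4.07 CPM, a log2 change of −1.01 ± 0.22 (SE) with an adjusted p of 1.79e-04 by edgeR. The 2 of the 16 regions that fell with IFN in USP18-/- cells, where 4.30% of all tested regions fell, were overlapping windows of CACNA2D4. CACNB3, a beta subunit, was the highest of the family, at 9.76 to 12.2 CPM in WT and 6.75 to 9.02 CPM in USP18-/- libraries in the window 378 bp inside the gene. The highest alpha-1 subunit, CACNA1E, had a mean of 1.25 CPM over the 8 libraries at its TSS, whereas the CACNA2D1 lead region had 50.0 CPM in untreated WT cells.

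Among 7 genes of the telomerase enzyme, 7 had a tested TSS region, with 12 regions in all. TERT was the only one of them with a region called lower, 2 of its regions untreated and 1 with IFN. Of all tested regions, 10.8% and 13.4% were lower. TERC, the RNA template of telomerase, had 35.1 to 42 CPM in WT and 45.3 to 57.2 CPM in USP18-/- libraries 5 bp upstream of its start, at log2 differences of 0.48 and 0.38. The overlapping TERC window at 645 bp had log2 differences of 0.43 untreated and 0.06 with IFN. At 1934 bp, where levels were 0.437 to 1.72 CPM, they were −0.08 and −1.02. DKC1 and NOP10, proteins of the telomerase particle, had 9.68 to 12.7 CPM and 13.8 to 17.6 CPM in WT against 10.2 to 15 CPM and 19.6 to 26.5 CPM in USP18-/- libraries. With IFN in USP18-/- cells WRAP53, which directs telomerase to Cajal bodies, went from 24.7 and 25.7 CPM to 44.2 and 43.6 CPM in its window 205 bp from the TSS, a log2 change of 0.80. Its window 75 bp upstream of a TSS did not rise, with 3.44 and 4.75 CPM untreated and 3.59 and 4.44 CPM with IFN, a log2 change of −0.02.

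The genes with the pattern most like each lead region were sought among 25281 to 25544 TSS regions elsewhere in the genome, by the Euclidean distance of centered log2 levels over 8 libraries. For the 3 loci lower in the knockout the same pair of genes came out, POPDC3, a cAMP-binding membrane protein gene, and EYA1, a transcriptional coactivator gene. The distances were 1.36 and 1.48 for CACNA2D1, 0.51 and 0.80 for LINC02036 (EYA1 first) and 2.04 and 2.29 for MIR4457. POPDC3 carried 27.6 to 34.2 CPM in WT and 0.79 to 1.52 CPM in USP18-/- libraries, and EYA1 28.9 to 30.6 CPM against 1.2 to 1.4 CPM in its window 57 bp upstream. For LINC00910 they were MFNG, a glycosyltransferase that modifies Notch, at a distance of 1.82, and LOC102724908 at 2.52. MFNG carried 0.41 to 1.46 CPM in WT and 22.02 to 23.07 CPM in USP18-/- libraries. The likeness is dominated by the genotype difference, on which the loci were chosen.

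H3K27ac in a population of cells is a mean over cells and alleles. A low level cannot tell fewer acetylated cells or alleles from less acetylation in each of them, and the DNA content of these windows was not measured, since the input libraries were not analysed here.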

How the data were processed

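Per the file header and the study's methods, the authors mapped H3K27ac reads to hg38 with Bowtie2 and counted tags with HOMER in windows of 1000 bp around ATAC-seq peaks. The deposited values are expected counts, that is fractional tags without normalization, of which 52.2% were whole. They were rounded to whole counts. Value columns that could not be mapped to a sample numbered 0. Tests used edgeR 4.0.16 in R 4.3.3, for regions reaching 10 counts in 2 or more libraries, with TMM scaling, 1 mean per group and the quasi-likelihood test, with p adjusted by Benjamini-Hochberg over 123276 regions. DESeq2 1.42.0 was an alternative. The smallest library held 9082433 rounded counts, with a common biological coefficient of variation of 0.0737.

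The members and the gene lists were chosen with earlier results of these data known. Named regions are the lead region of each locus and tested regions within 3000 bp of a TSS. Others were named for completeness of a locus after their values were seen. Neighbors are the 2 nearest gene names on each side, of which 1 is not reported here. Likeness used log2(CPM + 0.5), without regions within 5 Mb. Poisson intervals and floors cover counting error only. The scripts were tested on simulated data. Motifs and bases were read from hg38 with Python 3.11.15. Other columns of the table, which name ATAC-seq libraries, and the input libraries were not used here. The 2 libraries of a group are biological replicates per the labels.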

Additional observations from a re-analysis of the deposited data

How the results depend on the processing

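Of the alternatives for the counts of called regions, 1 window per chain of overlapping windows left 2 regions higher in untreated USP18-/- cells, 3 higher with IFN and 2 lower with IFN in USP18-/- cells, since it keeps fewer windows. Without a fold threshold 4 regions were lower with IFN in WT and 4 higher with IFN in USP18-/- cells, and the fit of 2 groups only gave 1 higher with IFN in WT. With 1 library left out the count higher with IFN in USP18-/- cells was 0 to 1.

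Scaling by the sum of counts shifted the median of all regions to −0.16 (untreated genotypes), −0.27 (genotypes with IFN) and −0.14 (IFN in USP18-/- cells). The lead regions moved with it, to −5.65 and −6.06 at CACNA2D1, −5.64 and −5.89 at LINC02036 and −4.85 and −6.49 at MIR4457, and header totals gave −6.34 for the last of these. The causes of other changes were not tested. Leaving out 1 library gave −5.71 to −5.33 untreated and −5.94 to −5.62 with IFN at CACNA2D1, −5.77 to −5.24 and −6.00 to −5.34 at LINC02036 and −4.78 to −4.65 and −6.32 to −6.15 at MIR4457. The untreated ratio at LINC00910 was 52.3 to 179 over the same alternatives and 75.9 and 80.9 with the other scalings, alternatives chosen for this ratio after seeing the data.

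The replicate numbers did not pair the libraries (correlations of deviations from −0.0031 to 0.0586). With the replicate block the IFN effect in WT at the MIR4457 lead region was −0.30, with an adjusted p of 0.0307 by edgeR, and it also passed with sums of counts (−0.30) and 2 groups only (−0.28). Over the alternatives that left out a library it was −0.37 to −0.24, with adjusted p from 0.0298 to 0.535 by edgeR. The block moved no count of called regions.

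IFN effects near 0 changed sign without 1 library. Their ranges were −0.027 to 0.30 in WT and −0.34 to 0.063 in USP18-/- cells at the CACNA2D1 lead region, −0.20 to 0.46 in USP18-/- cells at that of LINC02036, −0.11 to 0.034 and −0.0032 to 0.16 in WT at the LINC00910 windows 20557 and 19701 bp from the TSS, and −0.39 to 0.13 in USP18-/- cells at the MIR4457 window at 5140 bp. The LINC00910 lead region in USP18-/- cells had 0.016 to 0.50, and passed the test without the second IFN library.

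With 2 libraries per group, precision rests on a spread shared across regions. Where a library is left out of a group, the remaining one is assumed to vary like the others.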
